A study of Mus musculus with 4 samples.

Results

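The 2'-5' oligoadenylate synthetases (OAS proteins) and the kinase PKR are sensors of double-stranded RNA, and their genes were followed here in C2C12 cells, a mouse myoblast line. Their 9 genes, Oas1a, Oas1b, Oas1c, Oas1g, Oas2, Oas3, Oasl1, Oasl2 and Eif2ak2, were found by symbol among 55416 gene IDs in the deposited files. The rule that chose them is a list of names. All 9 passed the filter on low values, a mean of at least 0.5 TPM, which 16304 genes passed in all. TPM is the abundance of a transcript for its length, as a share of the library. Cells of one group received 3 µg of DNA encoding normal (wild-type) lamin A and cells of the other the K97E form, with Lipofectamine 2000, and both were harvested after 24 h. The lamina under the nuclear envelope is built partly from lamin A, the product of Lmna, and the series describes K97E as a mutant of dilated cardiomyopathy. The labels name 2 biological replicates in each group, and untransfected cells were not analysed here. All 4 libraries therefore come from cells that took a lipid and DNA treatment, and the promoter and species of the transfected DNA are not given in the sources used here. Whether the replicates were grown or transfected apart is not stated in the labels, and p-values therefore reflect only how these 4 samples vary, which may be technical variation.

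When an OAS protein binds double-stranded RNA it joins ATP into short 2'-5' linked oligoadenylates, which act as second messengers of RNA decay. PKR, encoded by Eif2ak2, binds the same kind of RNA and phosphorylates the translation factor eIF2. Interferons induce most of these genes through the factor ISGF3, which binds a promoter motif called ISRE.

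The libraries held between 89600000 and 115600000 estimated reads of 100 bases on transcripts, which left between 797 and 74267 estimated reads on each of the 9 genes per library. Of 8 listed myoblast markers, 7 were found by symbol and 6 passed the filter. Myod1, the myogenic master factor, stood between 4.56 and 4.96 TPM, above 30.3% of tested genes by mean TPM. Myf5 stood between 41.5 and 47.8 TPM and desmin, Des, between 384 and 467. Of the 6, 4 were lower and 2 higher with K97E, and 0 were called, where 50.5% of all tested genes were lower and 0.00613% were called. Chrna1, of the same list, stood at 49.8 and 51.8 TPM with wild-type lamin A and 40.2 and 41.3 with K97E. Its unadjusted p was 0.00737 and its adjusted p 0.965 in limma. Myog, a marker of differentiation, was at or below 0.0959 TPM. The leukocyte list of 10 genes summed to 4.89 and 7.43 TPM with wild-type lamin A and 4.34 and 6.38 with K97E, with Ptprc at or below 0.0496 TPM and 4 of the 10, Adgre1, Cd3e and Itgax among them, listed at 0 in all libraries. The endothelial list summed to 18.4 and 20.8 TPM with wild-type lamin A and 17.5 and 19.0 with K97E, nearly all of it Cdh5 at 17.1 to 20.3 TPM, while Pecam1 reached 0.159 TPM. The epithelial list summed to 0.599 TPM at most, with Epcam at or below 0.033 TPM. Lmna stood at 558 and 596 TPM with wild-type lamin A and 660 and 629 with K97E (log2 difference 0.10, SE 0.10; adjusted p = 0.965 in limma). Reads of the transfected DNA and of the cells' own gene were not separated in these values, so Lmna does not check the labels.

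No change between K97E and wild-type lamin A was called for any of the 8 OAS genes that were tested or for Eif2ak2, the gene of PKR. In limma's test over all 16304 genes, 0 of 9 were called at an adjusted p under 0.05, where 0.00613% of all tested genes were called, and 0 of 9 had an unadjusted p under 0.05, against 3.68%. With voom weights on the estimated reads 0 of 9 were called as well, again with 0 at an unadjusted p under 0.05. All 9 log2 differences were below 0, as were 50.5% over all tested genes, and they ran from -0.19 to -0.01 with a median of -0.16. Over all tested genes the middle 50% of values lay between -0.11 and 0.10. The 95% intervals of the 9 genes together spanned -0.55 to 0.23 on the log2 scale, a fold change between 0.68 and 1.17. For a single gene, an exact two-sided permutation test over these 4 samples could not give a p below 0.333. In a bulk sample, fewer cells that express a gene and less RNA per cell cannot be told apart.

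**Figure D1:**
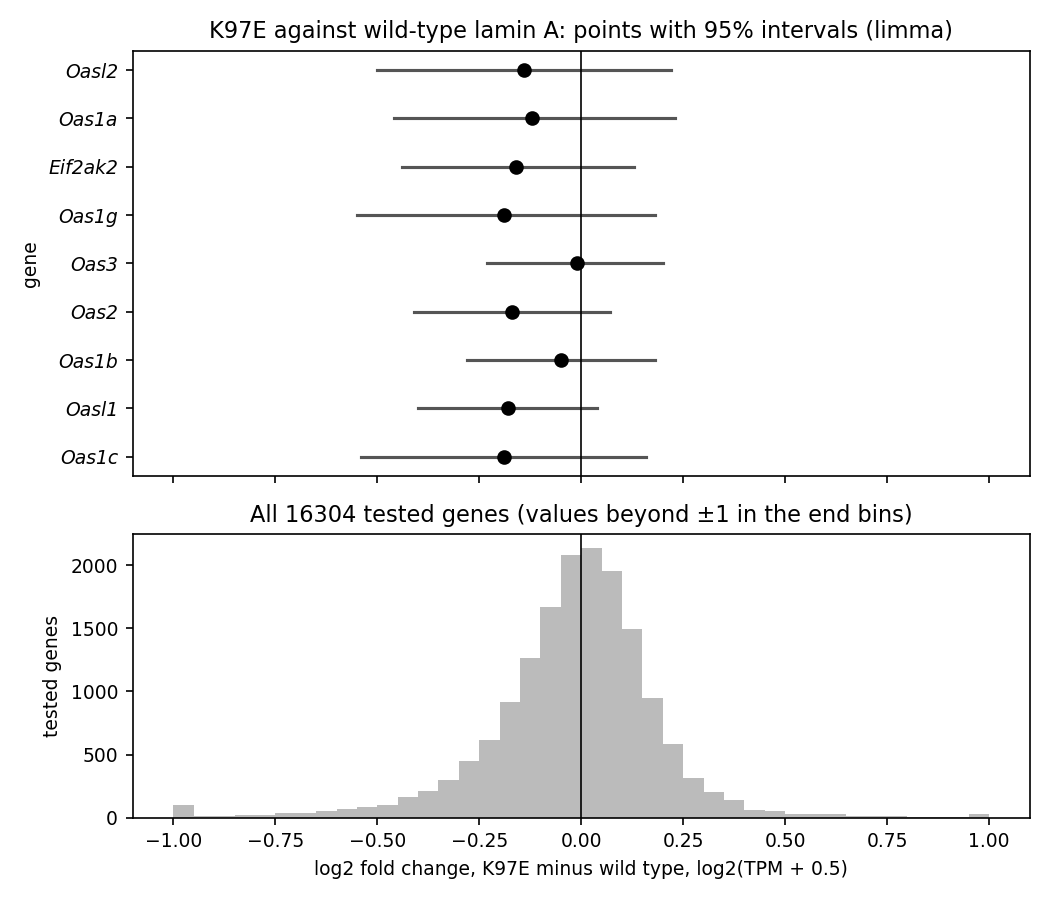
Log2 fold change of K97E against wild-type lamin A on the log2(TPM + 0.5) scale for each gene, with the 95% interval from limma (top), and the same quantity over all 16304 tested genes (bottom). Every interval of the 9 genes crosses 0, and the points lie between -0.19 and -0.01.

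Most of the members stood high among the expressed genes in both groups. Oasl2 stood above 98.3% of tested genes by mean TPM, Oas1a above 97.1%, Eif2ak2 above 96.3%, Oas1g above 96.0%, Oas3 above 93.5% and Oas2 above 93.3%. TPM accounts for transcript length, but the order also depends on the transcripts counted and on how reads of close paralogs are divided. On transcripts annotated as protein-coding in GENCODE M21, Oas1g lay at 72.6 to 80.8 TPM, below Oas3 (144 to 157) and Oas2 (132 to 155). The order below is of gene TPM over all transcripts. The ranges over 4 libraries overlapped between Oas1a and Eif2ak2, between Eif2ak2 and Oas1g, and between Oas3 and Oas2, so these neighbours were not separated beyond their spread. The other neighbours in the order, Oasl2 and Oas1a, Oas1g and Oas3, Oas2 and Oas1b, Oas1b and Oasl1, and Oasl1 and Oas1c, had ranges that did not overlap.

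**Figure D2:**
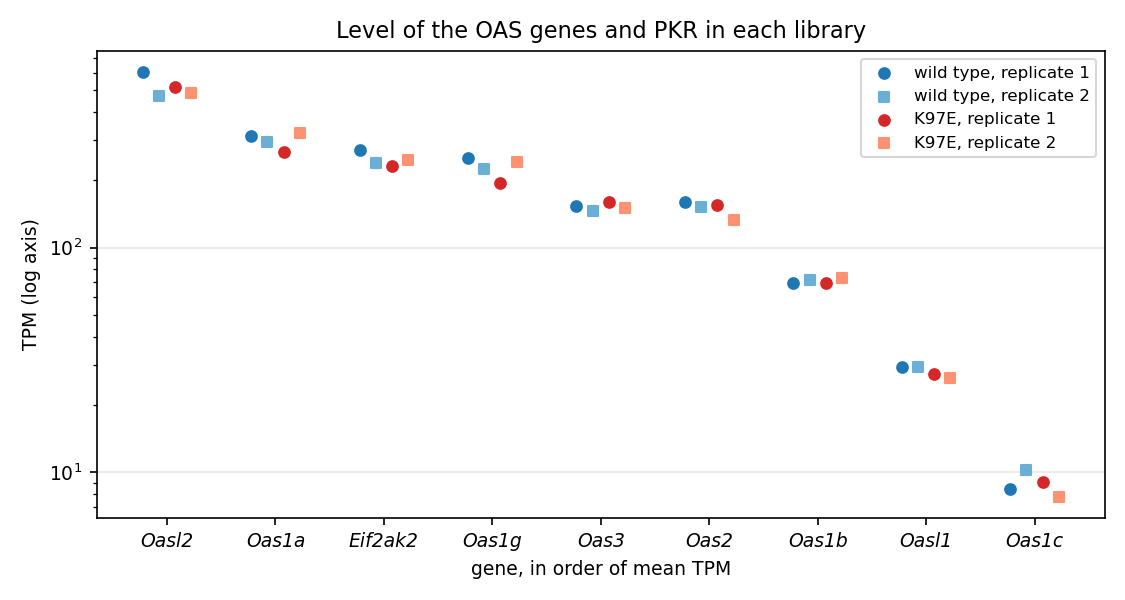
TPM of each gene in each of the 4 libraries on a log axis, in order of mean TPM. Circles are replicate 1 and squares replicate 2 (blue wild type, red K97E); Oasl2 lies between 470 and 604 TPM and Oas1c between 7.80 and 10.2.

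Oas1a and Oas1g encode the small OAS1 enzymes that make 2'-5' oligoadenylates in the mouse. Oas1a (ENSMUSG00000052776; GRCm39 chromosome 5, 121034319 to 121045584, minus strand) stood at 314 and 296 TPM with wild-type lamin A and at 266 and 322 TPM with K97E. The lowest and the highest value both came from K97E libraries, so the groups overlapped. The log2 difference was -0.12 (SE 0.14, 95% interval -0.46 to 0.23, limma adjusted p = 0.965), and it was 0.05 without K97E replicate 1 and -0.29 without K97E replicate 2. Oas1g (ENSMUSG00000066861; chromosome 5, 121014205 to 121025676, minus strand) stood at 249 and 224 TPM with wild-type lamin A against 194 and 240 TPM. K97E replicate 1 was the low library, as for Oas1a, and K97E replicate 2 lay between the wild-type values. Its log2 difference was -0.19 (SE 0.15, 95% interval -0.55 to 0.18, limma adjusted p = 0.965), with -0.0028 without K97E replicate 1 and -0.37 without K97E replicate 2.

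These paralogs are close to identical in sequence, so a single read can match both. The reads were paired, so a mate can still tell the genes apart, and fragments that match both were not counted. In the GENCODE M21 transcripts their coding sequences both have 1101 bases and differ at 36 positions (96.7% the same). Of all 100-base windows, the length of a read, 40.9% of the Oas1a transcript also occurred in Oas1g, and 38.2% of the coding Oas1g transcript in Oas1a. The exons of Oas1a before its last had a coverage per base between 1270 and 2890, against 378 to 449 in the last exon, which is 769 bases long. The leading transcripts of the other members shared no such window with another gene. The first 120 coding bases are shown because they are the same in both genes, at chr5:120907357-120907476 for Oas1a and chr5:120887443-120887562 for Oas1g (GRCm38, minus strand).
Oas1a and Oas1g: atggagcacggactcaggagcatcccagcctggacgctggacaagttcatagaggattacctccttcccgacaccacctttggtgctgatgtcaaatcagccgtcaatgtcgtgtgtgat
Coding bases 473 to 592, in coding exon 3, are shown because among windows of that length within 1 exon they hold the most differences, 16, which stand in capitals. They lie at chr5:120901935-120902054 for Oas1a and chr5:120881950-120882069 for Oas1g (GRCm38, minus strand).
Oas1a: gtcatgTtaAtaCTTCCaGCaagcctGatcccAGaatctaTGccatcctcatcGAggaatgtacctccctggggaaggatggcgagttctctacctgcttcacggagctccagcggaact
Oas1g: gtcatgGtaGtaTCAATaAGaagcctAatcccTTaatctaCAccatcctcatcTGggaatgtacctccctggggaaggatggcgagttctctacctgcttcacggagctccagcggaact
Summed over Oas1a, Oas1b, Oas1c and Oas1g, the level was 640 and 602 TPM with wild-type lamin A and 539 and 643 TPM with K97E. The sum had a log2 difference of -0.14 (SE 0.14, 95% interval -0.49 to 0.21, limma adjusted p = 0.965), and its highest and lowest libraries were both K97E.

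Oas1b, whose full-length form is known for resistance to flaviviruses in mice, hardly varied. It stood at 69.6 and 71.9 TPM with wild-type lamin A and at 69.3 and 72.9 TPM with K97E (ENSMUSG00000029605; chromosome 5, 120950700 to 120962228, plus strand). The groups overlapped, and the log2 difference was -0.05 (SE 0.09, 95% interval -0.28 to 0.18, limma adjusted p = 0.970), with 0.01 for TPM as deposited and 0.02 without K97E replicate 1. Oas1c (ENSMUSG00000001166; chromosome 5, 120938259 to 120950579, minus strand) was the weakest member, at 8.43 and 10.2 TPM and at 9.06 and 7.80 TPM. Both its extremes lay in replicate 2 libraries, wild type the highest and K97E the lowest. The log2 difference was -0.19 (SE 0.14, 95% interval -0.54 to 0.16, limma adjusted p = 0.965), and it was -0.32 without wild-type replicate 1 and -0.06 with wild-type replicate 2 left out. Of the exonic bases of Oas1c 9.44% overlap exons of Gm43069 on the opposite strand, a gene at 0.548 TPM at most, and no strand option was recorded for the quantification.

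Oas2 and Oas3 are the larger synthetases, which carry tandem OAS units. Oas3 (ENSMUSG00000032661; chromosome 5, 120891163 to 120915726, minus strand) stood at 153 and 146 TPM with wild-type lamin A and at 159 and 150 TPM with K97E. This was the smallest difference of the family, -0.01 on the log2 scale (SE 0.09, 95% interval -0.23 to 0.20, limma adjusted p = 0.993), and its sign depended on the scaling: it was 0.05 for TPM as deposited, 0.04 with quantile normalization and 0.02 for FPKM. Oas2 (ENSMUSG00000032690; chromosome 5, 120868398 to 120887918, minus strand) stood at 159 and 152 TPM with wild-type lamin A against 154 and 133 TPM. After scaling, both K97E libraries lay below both wild-type libraries, while the deposited values overlapped. The log2 difference was -0.17 (SE 0.10, 95% interval -0.41 to 0.07, limma adjusted p = 0.965), and it ran from -0.25 to -0.10 with a library left out.

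Oasl1 and Oasl2 carry ubiquitin-like domains behind the OAS unit. Oasl1, known as an OAS-like protein without synthetase activity that limits translation of the interferon factor IRF7, stood at 29.3 and 29.4 TPM with wild-type lamin A and at 27.4 and 26.4 TPM with K97E (ENSMUSG00000041827; chromosome 5, 115061299 to 115075974, plus strand). Both K97E values lay below both wild-type values, and the replicates were close to each other. The log2 difference was -0.18 (SE 0.09, 95% interval -0.40 to 0.04, limma adjusted p = 0.965, unadjusted p = 0.0861), and it stayed between -0.19 and -0.17 with any 1 library left out. Oasl2 (ENSMUSG00000029561; chromosome 5, 115034997 to 115050295, plus strand) was the most abundant member, at 604 and 470 TPM and at 516 and 489 TPM. Wild-type replicate 1 stood apart from the other 3 libraries, and without it the log2 difference turned from -0.14 (SE 0.15, 95% interval -0.50 to 0.22, limma adjusted p = 0.965) to 0.03. Without wild-type replicate 2 it was -0.32, with an unadjusted p of 0.0229 and a limma adjusted p of 0.306.

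Eif2ak2 (ENSMUSG00000024079; GRCm39 chromosome 17, 79159993 to 79190002, minus strand) stood at 273 and 237 TPM with wild-type lamin A and at 231 and 245 TPM with K97E. Wild-type replicate 1 was again the highest library, and K97E replicate 2 lay above wild-type replicate 2. The log2 difference was -0.16 (SE 0.11, 95% interval -0.44 to 0.13, limma adjusted p = 0.965), and leaving out wild-type replicate 1 or 2 gave -0.06 or -0.26.

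Groups that did not overlap after scaling were found for 2 of 9 members, Oas2 and Oasl1, against 33.1% of all tested genes in either direction. Both had K97E values below the wild-type values, which held for 16.8% of all tested genes. The other 7 overlapped. By library, 5 of 9 members were highest in wild-type replicate 1 and 5 of 9 lowest in K97E replicate 1. The same shares over all tested genes were not computed, so these counts are not shown to be particular to the members. The median deviation of the members from the gene mean was 0.10 in wild-type replicate 1 and -0.09 in K97E replicate 1 on the log2 scale. In wild-type replicate 2 and K97E replicate 2 it was 0.02 and -0.02. Without wild-type replicate 1 the median log2 difference over members was -0.08, and without K97E replicate 1 it was -0.08 as well. Wild-type replicate 1 also had 7.37% of its TPM on mitochondrial transcripts, against 5.29% to 5.55% in the other libraries, and the part of this in the result was not tested.

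**Figure D3:**
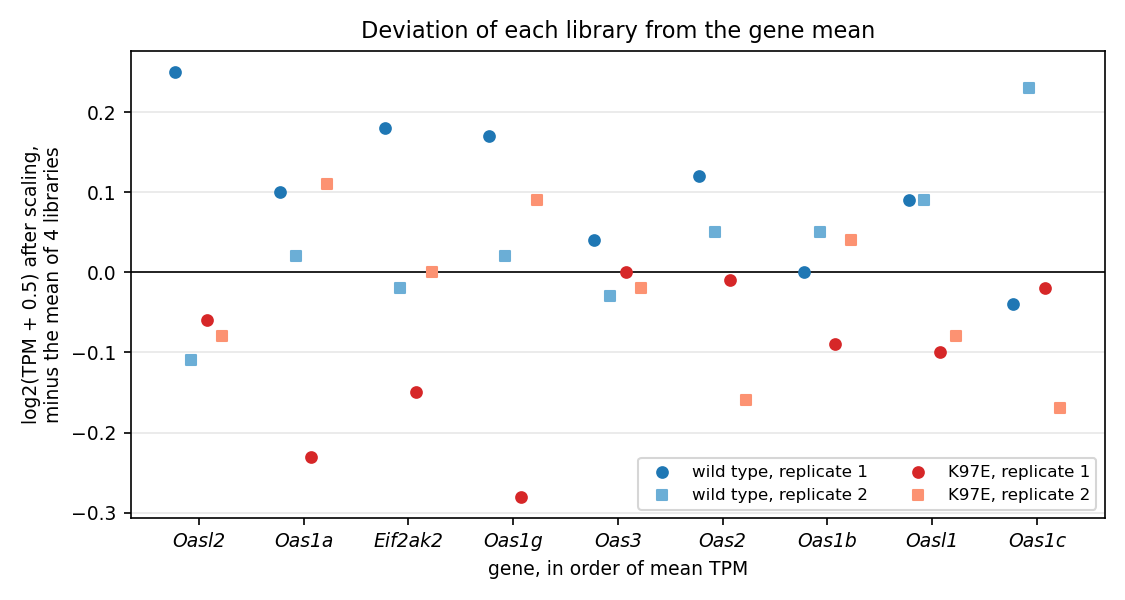
Scaled log2(TPM + 0.5) of each library minus the mean of the 4 libraries, per gene. Circles are replicate 1 and squares replicate 2 (blue wild type, red K97E). Of the 9 members 5 are highest in wild-type replicate 1 and 5 lowest in K97E replicate 1, shares not computed over all tested genes. The groups stand apart only for Oas2 and Oasl1.

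The remaining Oas1 paralogs were close to silent. Oas1d reached 0.310 TPM, Oas1e 0.244 and Oas1h 0.359 at most, and Oas1f was listed at 0 in all 4 libraries. They lie among the expressed genes: in the cluster of 10 genes on chromosome 5, Oas1e stands next to Oas1c and Oas3 at 152 TPM, and Oas1h next to Oas1g at 227 TPM. Oas1d follows Oas1a, the gene with the highest level in the cluster. These 4 were below the filter and were not tested.

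**Figure D4:**
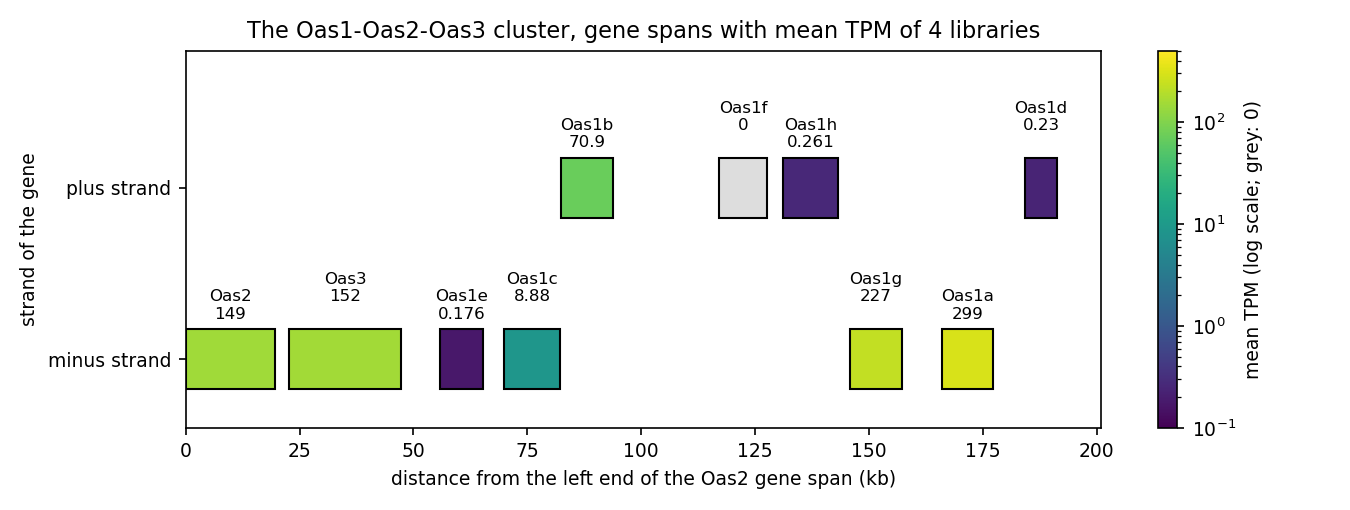
Gene spans of the Oas cluster on the plus and minus strand, by distance in kb from the left end of the Oas2 span, coloured by mean TPM of 4 libraries on a log scale (the mean is printed under each name). Expressed genes such as Oas1a (299) and Oas3 (152) alternate with Oas1e (0.176), Oas1h (0.261) and Oas1d (0.23), and Oas1f is at 0.

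The transcript values showed where the variation between libraries sat. For Oasl2, transcripts annotated as protein-coding in GENCODE M21 summed to 388 and 355 TPM with wild-type lamin A and 380 and 348 TPM with K97E. Its remaining transcripts, of the retained-intron and nonsense-mediated-decay biotypes, summed to 216 and 116 TPM and to 136 and 142 TPM. Most of the excess of Oasl2 in wild-type replicate 1 was thus credited to transcripts that are not annotated as coding. The decay transcript ENSMUST00000144064 alone stood at 94.8 TPM there, against 42.0, 56.0 and 58.7 TPM in wild-type replicate 2 and the K97E libraries. In the leading coding transcript, internal exons were covered less than the last exon in the same library, with a log2 ratio of -0.36, against -0.09, -0.03 and -0.01. For Oas3 the ratio was -0.77 there, against -0.36, -0.31 and -0.30. Of the 9 members 4 had their lowest ratio in wild-type replicate 1, as did 41% of all transcripts so measured, and Oas1c and Oas1g had their highest there. Over 7357 transcripts with at least 5 exons and a coverage of at least 20, the median of this ratio was 0.41 in that library, with values between 0.38 and 0.42 elsewhere. Retained-intron transcripts took 4.22% of all TPM in wild-type replicate 1 and 3.86% to 4.16% in the other libraries, and decay transcripts took 1.93% there against 2.06% to 2.14%.

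Oas1g differed from the other members in that less than 40% of its TPM lay on its coding transcript. ENSMUST00000086368, the coding transcript, stood at 76.9 and 72.6 TPM with wild-type lamin A and at 76.3 and 80.8 TPM with K97E. The decay transcript ENSMUST00000162096 stood at 137 and 123 TPM with wild-type lamin A against 94.1 and 129 TPM, so the low value of Oas1g in K97E replicate 1 lay outside the coding transcript. The coding share was 30.9% and 32.4% with wild-type lamin A and 39.3% and 33.7% with K97E. Oas1b had a coding share between 64.5% and 74.9%, and its files list a transcript of nearly the same length, ENSMUST00000183291, annotated as a polymorphic pseudogene, at 14.8, 6.81, 9.02 and 13.3 TPM. StringTie divides reads between such transcripts by a model, so these splits are estimates. In Oas2, Oas3, Oasl1, Oas1c and Eif2ak2 at least 93.4% of TPM was on coding transcripts in every library. All 37 transcripts of the 9 genes had an M21 biotype by transcript ID.

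**Figure D5:**
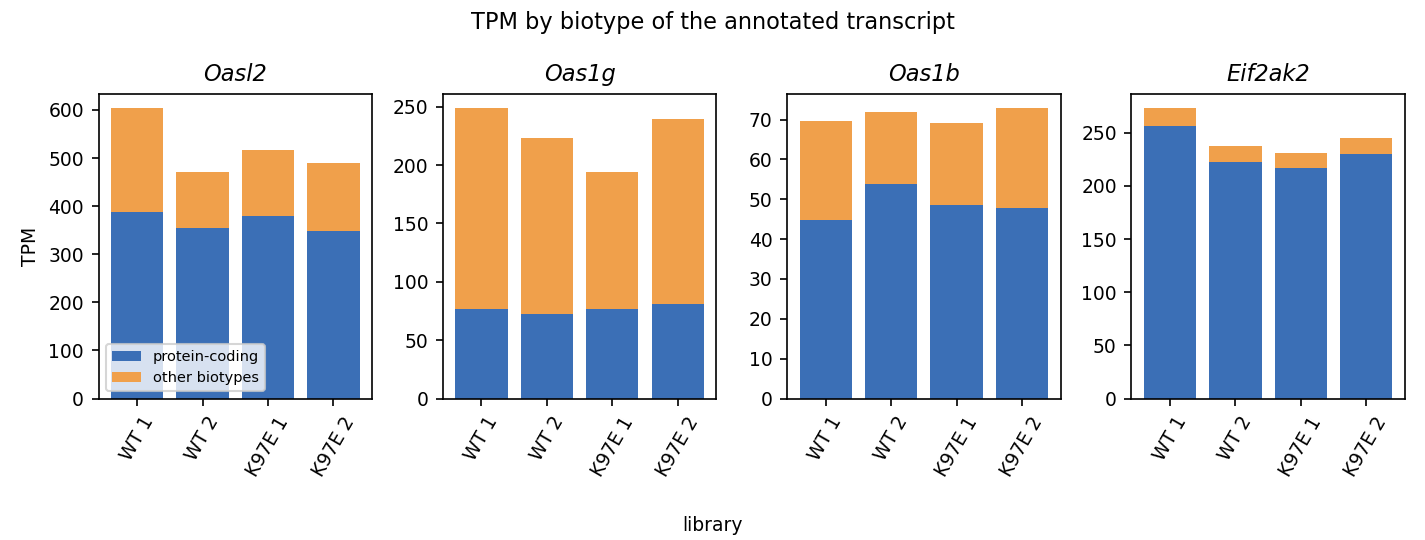
TPM of Oasl2, Oas1g, Oas1b and Eif2ak2 in each library, stacked by the biotype of the annotated transcript (blue protein-coding, orange other); each axis starts at 0. The coding part of Oasl2 lies between 348 and 388 TPM in all libraries, while the other part is 216 TPM in wild-type replicate 1 and 116 to 142 TPM elsewhere.

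Several members carry a promoter motif that their choice did not use. RefSeq promoters (GRCm38.p6, 250 bases before to 50 after the start) were found for 7 of the 9 genes, all but Oas1b and Oas2. The core motif of the ISRE, searched as GAAANNGAAA on both strands with overlapping matches kept, occurred in 5 of these 7, Oas1a, Oas1g, Oas1c, Oas3 and Eif2ak2, and in 3.44% of 32851 promoters in the table. Oasl1 and Oasl2 had no match in this window. Most of the members are described above as induced through this motif, so the count is not an independent result about them. Oas1a and Oas1g are close paralogs that hold the same matched bases, so their matches are not separate observations. The stretches that hold the matches are shown with the matched bases in capitals, each on the strand of its gene.
Oas1a, chr5:120907526-120907645, minus strand: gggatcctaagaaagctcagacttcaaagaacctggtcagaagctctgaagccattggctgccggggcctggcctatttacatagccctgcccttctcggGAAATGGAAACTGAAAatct
Oas1g, chr5:120887614-120887733, minus strand: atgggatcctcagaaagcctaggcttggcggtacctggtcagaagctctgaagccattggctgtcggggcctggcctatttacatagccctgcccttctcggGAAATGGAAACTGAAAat
Oas1c, chr5:120812515-120812634, minus strand: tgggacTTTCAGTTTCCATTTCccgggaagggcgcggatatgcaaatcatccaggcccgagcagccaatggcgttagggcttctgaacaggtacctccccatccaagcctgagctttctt
Oas3, chr5:120777660-120777779, minus strand: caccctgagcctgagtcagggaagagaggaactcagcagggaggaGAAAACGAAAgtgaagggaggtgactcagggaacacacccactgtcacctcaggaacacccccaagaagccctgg
Eif2ak2, chr17:78882544-78882663, minus strand: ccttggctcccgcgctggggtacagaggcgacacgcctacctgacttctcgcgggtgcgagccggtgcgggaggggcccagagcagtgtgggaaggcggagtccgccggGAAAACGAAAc
Oas1a and Oas1g each hold a pair of overlapping matches just before the start, and Oas1c holds the pair on the other strand. The match of Oas3 runs from base -75 to -66 and that of Eif2ak2 from base 19 to 28 after the start. A match is a description of letters and not a measured binding site.

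Genes that act around the OAS and PKR systems were read from lists of pathway members, in the same fit. Beside the counts below, 0.00613% of all tested genes were called, 3.68% had an unadjusted p under 0.05 in limma and 50.5% had a negative difference. Of 12 regulators of the oligoadenylates and of PKR, 0 were called, 6 had negative and 6 positive differences, and the median was -0.01. Tarbp2, which encodes the inhibitor TRBP of PKR, stood at 45.1 and 55.3 TPM with wild-type lamin A and 63.5 and 64.8 with K97E, which is 0.30 higher on the log2 scale (SE 0.12, limma adjusted p = 0.965), and leaving out wild-type replicate 1 or 2 gave 0.15 or 0.44. Stau1, a protein that binds double-stranded RNA, differed by -0.17. Of 16 genes of the other eIF2 kinases, eIF2 and the response downstream, 0 were called and 1 had an unadjusted p under 0.05, with 11 negative, 5 positive and a median of -0.07. Eif2b3, a subunit of the eIF2 exchange factor, stood at 41.0 and 33.3 TPM with wild-type lamin A against 30.8 and 30.7 TPM, a log2 difference of -0.32. It was -0.12 with voom weights, and ran from -0.47 to -0.18 with a library left out. Ppp1r15a, the stress-induced subunit of an eIF2 phosphatase, differed by -0.16. No gene of this list of 16 passed the test, which called 1 of 16304 genes in all, so the count is not particular to the list. The phosphorylation of eIF2 was not measured.

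Other sensors of double-stranded RNA and their adaptors gave 0 calls among 14 tested genes, 1 with an unadjusted p under 0.05, 10 negative and 4 positive, with a median of -0.04. Tlr3, the endosomal receptor for double-stranded RNA, stood at 67.5 and 57.6 TPM with wild-type lamin A and 48.4 and 50.6 TPM with K97E, a log2 difference of -0.39 (limma adjusted p = 0.965). Tbk1, the kinase that activates IRF3, differed by -0.22. Interferon receptors and ISGF3 genes gave 0 calls among 16, with 15 negative, 1 positive and a median of -0.15, close to the members' own. For both lists, the shares over all tested genes were 0.00613% called, 3.68% at an unadjusted p under 0.05 in limma and 50.5% negative. All these genes were read in the same 4 libraries, so their signs are not independent of each other. Usp18, which damps interferon receptor signalling, stood at 477 and 479 TPM with wild-type lamin A against 396 and 433 TPM, a log2 difference of -0.27 (SE 0.11, adjusted p = 0.965 in limma). Its K97E libraries lay below its wild-type libraries, as in 7 of the 16 genes and in 16.8% of all tested genes.

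Most interferon genes in the files were below the filter, while Ifnb1 stood above 43.8% of tested genes by mean TPM. Of 21 ligand genes 18 were in the files, 3 passed the filter and 4 were listed at 0 in all libraries. Ifnb1, which encodes interferon beta, stood at 19.0 and 8.89 TPM with wild-type lamin A and at 4.69 and 12.6 TPM with K97E, so the groups overlapped. Its log2 difference was -0.77 (SE 0.53, limma adjusted p = 0.965), and it was -0.07 without K97E replicate 1 and -1.46 without K97E replicate 2. Ifna4 stood at 4.31 and 2.37 TPM with wild-type lamin A against 1.15 and 2.42 TPM. Its log2 difference was -0.80 (SE 0.38, limma adjusted p = 0.965), and it ran from -1.24 without K97E replicate 2 to -0.37 without K97E replicate 1. Wild-type replicate 1 was the highest and K97E replicate 1 the lowest library for both ligands, as for Eif2ak2 and Oas1g.

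The genes whose profile was nearest to the mean of the 9 members, by Euclidean distance between centred log2 values over 4 libraries among 11261 genes at a mean of at least 5 TPM, were Bag1, Ube2l6, Gm28119, Junb, Tor3a and Tmem141, at distances from 0.012 to 0.017. The mean profile was 0.10 and 0.03 in the wild-type and -0.11 and -0.03 in the K97E libraries. The members themselves lay between 0.082 and 0.286 from it, with a median of 0.162, and 22.4% of the other genes lay within that median distance.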

How the data were processed

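RNA was sequenced as paired reads of 100 bases from a stranded kit, per the labels' protocols, in 2 wild-type and 2 K97E libraries, grouped by the genotype label. Per the file headers, the authors ran StringTie 2.1.7 on Ensembl release 104 (GRCm39), for annotated transcripts only and with no strand option. HISAT2, SAMtools, FastQC and DESeq2 are named in the submitters' processing notes. The deposited files give TPM, FPKM and coverage per transcript, and no read counts. Estimated reads are coverage times length over 100. Gene TPM was the sum over transcripts, divided by median-of-ratios factors (0.98 to 1.04), plus 0.5, on the log2 scale. The test was limma 3.58.1 under R 4.3.3 (eBayes with a trend, two-sided, Benjamini-Hochberg over 16304 genes, threshold 0.05). TPM values printed are as deposited. In simulated data for this comparison over 16304 genes, the test called 70 of 100 genes with a 2-fold change, 97 of 100 with a 4-fold change and 11 genes with none. The changed genes were drawn from the higher-expressed ones, with normal noise from limma's own variance prior, and both sets were changed at once. Many true changes ease the Benjamini-Hochberg cutoff, so these rates do not give the power for the members in the real data. Biotypes, transcript sequences and promoters came from GENCODE M21 and RefSeq on GRCm38, matched by ID or symbol. Members and lists were chosen with earlier results of these data known. All members were named. Of each list the 2 genes with the smallest unadjusted p were named, apart from genes that are not reported here. Of Ddit3, which has 2 gene IDs, the lower ID was used. Rigi was read as Ddx58, and Ifna13, Ifna14, Ifng, Pax7 and Kdr were not found by symbol and were not analysed here. Python 3.11.15, pandas 2.3.3 and matplotlib 3.10.9 were used.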

Additional observations from a re-analysis of the deposited data

How the results depend on the processing

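Over 17 other ways of scaling, filtering or testing, or with a library left out, 140 of 149 member values were negative. The low-gene filters, the eBayes settings and the replicate block cannot change a member's fold change. Their values repeat the main fit and say nothing more about the sign. With every library kept, no member was called in limma, and Oasl1 had an unadjusted p of 0.0348 with no filter. Signs turned for Oas1b with TPM as deposited (0.01), and for Oas3 with TPM as deposited (0.05), quantile normalization (0.04), FPKM (0.02) and voom weights (0.0029). With a library left out, Oas1a ran from -0.29 to 0.05, Oas1b from -0.12 to 0.02, Oas3 from -0.04 to 0.02 and Oasl2 from -0.32 to 0.03. The members' median of -0.16 was -0.10 for deposited TPM and -0.10 after quantile normalization, and ran from -0.18 to -0.08 with a library left out. With TPM as deposited the median of all tested genes was 0.05. The cause was not tested.

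Over all tested genes, 1 gene was called in the fit reported. The count was 2 with TPM as deposited and with eBayes without trend, 4 with voom weights, 0 with no filter and 0 with the replicate block, and ran from 0 to 18 with a library left out. Deviations of libraries with the same replicate number had a correlation of -0.137 across genes. With 2 libraries a group, this cannot show whether the samples were handled in pairs. The crossed pairing, a replicate block chosen after seeing the data, gave 30 calls, with 0 members. The replicate block changed no call of a member. Depth left at least 797 estimated reads on a member, and the number of libraries, 2 a group, limits the precision.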
